A study of Mus musculus with 2 samples.

Results

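Cycling macrophages of mouse MC38 tumours are the subject: tumour-associated macrophages that held RNA of proliferation genes when they were captured. A cell was taken as a macrophage when it held at least 1000 UMIs (counted RNA molecules, told apart by their molecular tags), at most 20% mitochondrial UMIs, at least 5 UMIs of the complement genes C1qa, C1qb and C1qc together and at least 20 of them per 10000 UMIs. It also had 0 UMIs of the T cell genes Cd3d and Cd3e and at most 2 of Hmga2 and Rhox5, which mark the tumour cells. Of 7778 cells that passed this gate, 846 had at least 3 UMIs of Mki67 and Top2a together and are called cycling, 450 in the control and 396 in the knockdown library. They are compared with 5585 cells of the same gate that had 0 UMIs of either gene, called non-cycling. The gate drew on 28363 barcodes of at least 1000 UMIs and at most 20% mitochondrial UMIs. Measured counts of Mki67, Top2a and the C1q genes thus chose the cells, and the values of these genes are given as a description only.

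MC38 is a mouse colon adenocarcinoma cell line that is grown as a tumour in mice. The series holds 2 droplet libraries, 1 of tumours labelled Mbtps1 WT, called control, and 1 of tumours labelled Mbtps1 KD, called knockdown, whose series text speaks of a knockout. Mbtps1 encodes site-1 protease, a Golgi enzyme that releases the SREBP and ATF6 transcription factors from membranes. The genotype stands beside the MC38 line, and the labels do not say whether host cells carry it. Host strain, sex and age, and how many tumours each library holds, are not stated in the sources used. With 1 library per group there is no replicate, so no test was made between cells or libraries. The 95% intervals given below cover counting error only.

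Macrophages of tumours come from blood monocytes and, in part, from dividing macrophages within the tissue. CSF1, through its receptor Csf1r, keeps macrophages alive and lets them divide. A dividing cell copies its DNA in S phase with the MCM helicase, polymerases and newly made histones, and then separates its chromosomes in mitosis with kinetochores and a microtubule spindle. Mki67 coats mitotic chromosomes, Top2a untangles DNA strands, and C1qa is a chain of complement C1q that tissue macrophages secrete.

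Many genes of mitosis are known to be controlled through a short promoter element called CHR, often beside CCAAT boxes bound by NF-Y, and many genes of S phase through E2F sites. The RefSeq promoters (GRCm38.p6, 300 bases that end shortly after the transcription start) of both genes of the rule and of 5 of the genes that were highest in cycling macrophages are shown for this reason. The 5 were chosen, after the letters were searched, for holding a CCAAT box together with CHR or E2F letters. Of the other 4 matched promoters among the 12 highest genes, those of Nusap1 and Neil3 held none of the letters, that of Knl1 held CHR alone, and that of Kif15 CHR and E2F. Each is read 5′ to 3′ along the gene. Capitals mark CHR (TTTGAA, or TTCAAA on the other strand), the CCAAT box (CCAAT or ATTGG) and an E2F site (TTTCCCGC, TTTGGCGC or TTTCGCGC on either strand). None of these letters overlap in the sequences shown.
Mki67: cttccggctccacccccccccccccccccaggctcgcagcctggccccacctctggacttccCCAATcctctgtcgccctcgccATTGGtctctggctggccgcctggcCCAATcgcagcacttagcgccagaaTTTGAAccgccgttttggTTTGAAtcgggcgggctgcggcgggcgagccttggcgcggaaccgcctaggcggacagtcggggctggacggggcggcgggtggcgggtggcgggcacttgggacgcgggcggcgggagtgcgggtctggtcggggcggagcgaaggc
Top2a: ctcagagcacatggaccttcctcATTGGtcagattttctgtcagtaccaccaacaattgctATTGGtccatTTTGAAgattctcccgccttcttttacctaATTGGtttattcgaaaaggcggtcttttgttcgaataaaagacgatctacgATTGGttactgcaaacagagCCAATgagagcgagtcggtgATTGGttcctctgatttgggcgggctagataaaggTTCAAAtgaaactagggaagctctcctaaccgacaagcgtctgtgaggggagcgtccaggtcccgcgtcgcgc
Kif11: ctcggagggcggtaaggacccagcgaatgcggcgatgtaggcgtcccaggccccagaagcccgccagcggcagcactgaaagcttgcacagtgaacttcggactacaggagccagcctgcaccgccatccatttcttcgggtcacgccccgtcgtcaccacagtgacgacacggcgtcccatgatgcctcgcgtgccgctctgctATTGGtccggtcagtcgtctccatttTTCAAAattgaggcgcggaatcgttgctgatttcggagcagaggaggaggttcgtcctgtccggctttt
Plk1: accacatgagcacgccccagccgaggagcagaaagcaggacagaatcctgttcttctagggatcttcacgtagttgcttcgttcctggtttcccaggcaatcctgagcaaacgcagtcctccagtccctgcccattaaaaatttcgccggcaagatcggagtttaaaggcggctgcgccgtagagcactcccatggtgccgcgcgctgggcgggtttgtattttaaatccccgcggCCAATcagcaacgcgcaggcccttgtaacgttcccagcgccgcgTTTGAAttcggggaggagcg
Hmmr: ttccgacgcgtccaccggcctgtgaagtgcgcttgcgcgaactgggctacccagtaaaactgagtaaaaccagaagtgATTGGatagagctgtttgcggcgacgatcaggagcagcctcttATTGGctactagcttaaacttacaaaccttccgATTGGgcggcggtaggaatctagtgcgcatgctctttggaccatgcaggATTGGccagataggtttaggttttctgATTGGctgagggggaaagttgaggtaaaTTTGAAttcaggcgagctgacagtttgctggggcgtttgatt
Prc1: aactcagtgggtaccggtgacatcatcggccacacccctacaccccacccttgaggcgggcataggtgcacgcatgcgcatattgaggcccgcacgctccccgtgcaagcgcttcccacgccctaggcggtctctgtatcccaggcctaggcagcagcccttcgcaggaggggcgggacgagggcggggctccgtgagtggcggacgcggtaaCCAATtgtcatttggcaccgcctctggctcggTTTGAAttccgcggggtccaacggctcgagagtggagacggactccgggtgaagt
Pclaf: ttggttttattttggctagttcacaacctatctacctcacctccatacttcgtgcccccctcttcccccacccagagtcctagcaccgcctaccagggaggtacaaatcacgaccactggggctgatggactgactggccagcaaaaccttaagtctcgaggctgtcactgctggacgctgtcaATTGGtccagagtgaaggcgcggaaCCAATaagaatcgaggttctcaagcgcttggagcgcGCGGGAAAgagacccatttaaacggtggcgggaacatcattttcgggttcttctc
The Mki67 stretch is chr7:135716330-135716629 on the minus strand and holds CHR letters 116 and 98 bases before the start. The Top2a stretch is chr11:99024140-99024439 (minus), with CHR letters 179 and 23 bases before the start. Kif11 is chr19:37376132-37376431 (plus), Plk1 chr7:122159185-122159484 (plus), Hmmr chr11:40733388-40733687 (minus) and Prc1 chr7:80294201-80294500 (plus), and each holds CHR and CCAAT letters. Pclaf is chr9:65890073-65890372 (plus), with an E2F site 5 bases before the start and no CHR.

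Promoters matched for 27025 gene symbols, of which 18.1% held CHR letters, 37.9% a CCAAT box, 7.12% both and 1.91% an E2F site. Of the 12 genes named below as highest in cycling macrophages, 9 matched, and 66.7% of them held CHR. In the list of kinetochore, spindle and cytokinesis genes, 33 of 38 matched, with CHR in 66.7%, CCAAT in 60.6% and E2F in 9.09%. The mitotic entry list (21 of 25 matched) had CHR in 47.6% and CCAAT in 76.2%. E2F letters stood in 53.3% of the replication licensing list (15 of 20 matched) and in 57.1% of the S phase cyclin and E2F list (14 of 16). Of the genes lowest in cycling macrophages 9 of 12 matched, 22.2% with CHR, 11.1% with CCAAT and 0% with E2F. The replication fork list (26 of 30 matched) had CHR in 11.5%, CCAAT in 53.8% and E2F in 23.1%. The G1 list (11 of 17) had 36.4%, 9.09% and 36.4%. CHR letters stood in 50% of the monocyte-derived list (8 of 16) and in 31.25% of the resident-like list (16 of 17). The inflammatory list (17 of 18) had CHR in 11.8% and the lipid-associated list (11 of 18) in 0%. CCAAT was most frequent in the cholesterol synthesis list, at 93.3% (15 of 22). A match of letters is a description and not a binding site.

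The cells carried macrophage genes that the gate did not use. Csf1r had 376 CPM (UMIs per 1000000 UMIs summed over the cells) in control and 419 CPM in knockdown cycling cells, and 421 and 424 CPM in non-cycling cells. The macrophage surface gene Adgre1 had 368 and 428 CPM, against 374 and 405 CPM in non-cycling cells. The lysosomal gene Cd68 had 502 and 515 CPM, against 594 and 631 CPM. The 15 macrophage markers, C1q genes included, summed to 39931 and 39543 CPM in cycling cells, against 50961 and 47544 CPM. Of the 15, 12 in control and 10 in knockdown had ratios below 1, and 3 were at least 1.5-fold lower in both. None was at 0 in the cycling cells, but neither was any of the fibroblast or endothelial markers, so this does not test the label. Droplets with at most 100 UMIs had 14509 and 9411 CPM of the 15 macrophage markers. The genes of the rule are given as a description. C1qa had 5938 and 5669 CPM in cycling cells and 5758 and 5299 CPM in non-cycling cells. Hmga2 and Rhox5 together had 0 UMIs in 78.9% of control and 68.9% of knockdown cycling cells. Mki67 had 304 CPM in control and 327 CPM in knockdown members, and Top2a 513 and 663 CPM. Both genes were found in 407 control and 329 knockdown members, Top2a alone in 36 and 58, and Mki67 alone in 7 and 9.

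Cells of the cycling class held more UMIs than those of the non-cycling class, and the knockdown library was shallower in both. The rule asks for 3 UMIs of a pair of genes against 0, so part of this difference in depth is fixed by the rule. The median was 10106.5 UMIs in control and 7194 in knockdown cycling cells, against 5971 and 4083 in non-cycling cells. Mitochondrial UMIs made up 2.54% and 1.86% of UMIs in cycling cells and 2.21% and 1.56% in non-cycling cells. The libraries held 177399315 and 174190399 UMIs, and 5 barcodes of the gate occurred in both, none of them among the cycling cells. Scrublet, a doublet caller, marked 2% of control and 1.77% of knockdown cycling cells and 1.06% and 1.41% of non-cycling cells.

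Markers of other cells were scarce in the members, with a few exceptions. The 16 tumour markers summed to 235 CPM in control and 226 CPM in knockdown cycling cells, below the 263 and 293 CPM of non-cycling cells and the 2112 and 1845 CPM of droplets with at most 100 UMIs. At least 5 tumour marker UMIs stood in 12.9% of control and 6.57% of knockdown members, against 5.44% and 3.15% of the shallower non-cycling cells. Nrp2 made up 79.7 and 79.9 CPM of that sum, Krt8 and Prl2c2 were among 4 tumour markers at 0 in control members, and Krt18 was 1 of 2 at 0 in knockdown members. The 13 T cell markers summed to 7.78 and 11.3 CPM, the 8 NK cell markers to 3.15 and 14.7 CPM, and the 10 dendritic cell markers to 75.5 and 77.8 CPM, mostly Wdfy4. The 8 fibroblast markers summed to 51.5 and 45.6 CPM in cycling cells against 119 and 154 CPM in non-cycling cells. The 8 endothelial markers, led by Pecam1, summed to 78.6 and 72.7 CPM in cycling cells against 67.9 and 101 CPM in non-cycling cells, and 2% and 0.758% of members held at least 5 of their UMIs, against 0.611% and 0.565%. The 8 neutrophil markers, mostly Csf3r, summed to 52.6 and 65.8 CPM. Mast cell and erythroid markers summed to at most 3.77 CPM.

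The B cell markers were higher in the members of both libraries and the keratinocyte markers in those of the control. The 7 B cell markers summed to 65.6 and 66.1 CPM in cycling cells against 48.1 and 41.2 CPM in non-cycling cells, led by Ighm (44.8 and 42.2 CPM), with the B cell factor Pax5 at 0 in the members of both libraries. At least 5 UMIs of them stood in 3.33% of control and 1.52% of knockdown members, against 0.354% and 0.0808% of non-cycling cells. The 8 keratinocyte markers summed to 128 CPM in control members, 25.4 CPM in control non-cycling cells and 7.54 CPM in knockdown members. Krt14 made up 70.8 CPM of the control sum, with 315 of its 337 UMIs in 1 cell. Only 4 control members held at least 5 keratinocyte marker UMIs. Cells with at least 5 UMIs of any of these lists, the dendritic cell and neutrophil lists and Nrp2 aside, were left out as an alternative added after seeing the data. This took away 48 control and 22 knockdown members. The median log2 ratio of the kinetochore list was then 4.35 in control and 3.65 in knockdown, against 4.34 and 3.69 with all cells.

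The cells were also sorted into classes by their count of Mki67 and Top2a UMIs. Sums over a class do not show whether its cells form 1 group or a mixture. At 0 UMIs the 38 kinetochore, spindle and cytokinesis genes summed to 882 CPM in control and 1197 CPM in knockdown, and at 10 or more UMIs to 8497 and 9337 CPM. Just below the threshold, at 2 UMIs (128 and 164 cells), they summed to 3080 and 3518 CPM, and just above it, at 3 UMIs (69 and 87 cells), to 4148 and 5337 CPM. The histone list went from 244 and 235 CPM at 0 UMIs to 2485 and 2033 CPM at 10 or more. The replication fork list was highest at 4 to 5 UMIs, with 2788 and 2624 CPM, and lower at 10 or more, with 1958 and 2221 CPM. C1qa stayed between 5634 and 6087 CPM in the control classes and between 5260 and 6065 CPM in the knockdown classes.

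**Figure D1:**
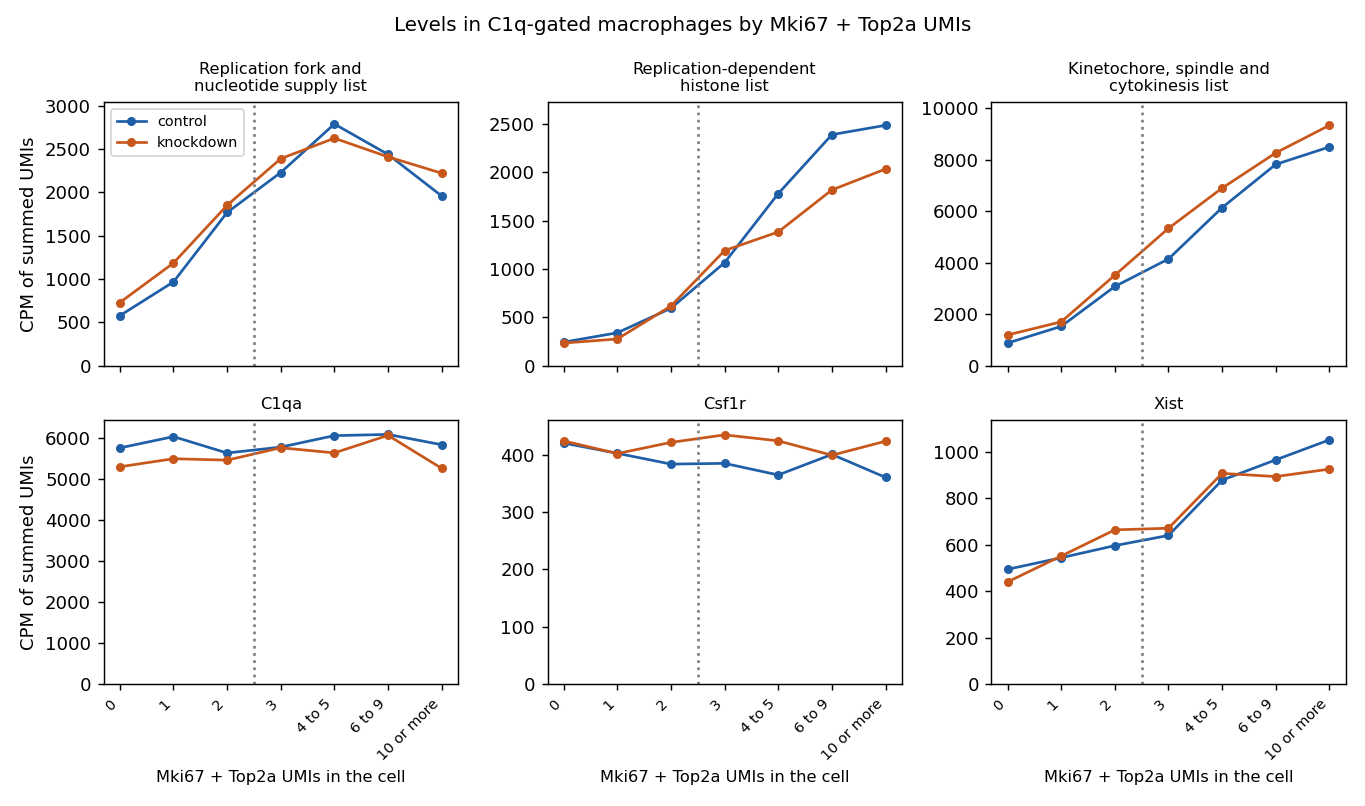
Summed CPM of 3 gene lists and of C1qa, Csf1r and Xist (vertical axes, from 0) in macrophages grouped by their Mki67 and Top2a UMIs (horizontal axis), as 1 point per library and class, with the dotted line at the minimum of 3 UMIs. The kinetochore list is at 882 and 1197 CPM at the left end and at 8497 and 9337 CPM at the right end, while C1qa is at 5260 CPM or above throughout.

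The share of macrophages that met the cycling rule was close in the 2 libraries at each cell's own depth. After thinning to equal depth it was higher in the knockdown, but the ratio's interval includes 1 under the full rule at 1000 UMIs. At own depth the share was 10.8% in control (450 of 4182, 9.84 to 11.7 by the exact Clopper-Pearson method) and 11% in knockdown (396 of 3596, 10.0 to 12.1). Knockdown thus stood at 1.02 times control (0.892 to 1.17). At least 3 UMIs over 6 other proliferation genes (Birc5, Cdk1, Ube2c, Ccna2, Tpx2 and Nusap1) were found in 15% and 14.9% of cells, a ratio of 0.994 (0.884 to 1.12). Of the members, 91.3% in control and 85.4% in knockdown also met that measure, as did 2.89% and 3.23% of non-cycling cells.

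Because knockdown cells were shallower, the share was also computed as the expectation after thinning each cell to a fixed number of UMIs. Thinning to 5000 UMIs left out 1243 of 4182 control and 2129 of 3596 knockdown cells as shallower. Of the rest, 10.3% and 17.5% kept at least 3 UMIs, a ratio of 1.71 (1.44 to 2.02). Cycling cells were the deeper class in both libraries, so leaving out shallow cells, or taking a bin of UMIs, can raise the knockdown share more. The part of this in the ratios was not tested. At 3000 UMIs, with 456 and 791 cells left out, the shares were 5.16% and 7.20%, a ratio of 1.39 (1.14 to 1.71). At 1000 UMIs, with no cell left out, 9.02% and 12.5% kept at least 1 UMI, a ratio of 1.39 (1.21 to 1.59). At that depth 0.683% and 1.05% of cells kept the 3 UMIs of the rule. Their ratio was 1.54, with an interval that includes 1 (0.920 to 2.59). Among cells of 5000 up to 7500 UMIs, taken unthinned, 4.65% of 1461 control and 14.3% of 1040 knockdown cells met the rule. From 7500 up to 10000 UMIs it was 14% and 35.3%, and from 10000 up to 15000 UMIs 36.2% and 59.6%. Above that it was 56.6% of 83 control cells and 25% of only 8 knockdown cells.

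Summed over all gated macrophages, Mki67 had 61.2 CPM in control and 70.6 CPM in knockdown, a ratio of 1.15 (1.07 to 1.24), and Top2a 102 and 146 CPM, a ratio of 1.44 (1.36 to 1.51). The same ratio was 1.25 for the replication licensing list, 1.20 for the replication fork list and 1.18 for the kinetochore list. It was 0.855 (0.833 to 0.877) for the histone list, which summed to 590 and 504 CPM. Of these sums Hist1h2ap, whose reads may be split with those of similar copies, made up 105 and 46.9 CPM. Droplets with at most 100 UMIs, which hold free RNA, had 63.8 and 70.5 CPM of Mki67 and 162 and 251 CPM of Top2a, levels near or above those of the gated cells. Among barcodes with neutrophil genes, cells that do not divide, 1 of 20 in control and 3 of 33 in knockdown held a Mki67 or Top2a UMI, and 0 held 3. A floor of 3 counts allows shares of up to 15% and 9.09%, and the exact intervals reach 16.8% and 10.6%, for counting error only. Those barcodes had medians of 1508.5 and 1237 UMIs against 6404.5 and 4457 in the gated macrophages. The part of depth and free RNA in the ratio at equal depth was not tested.

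**Figure D2:**
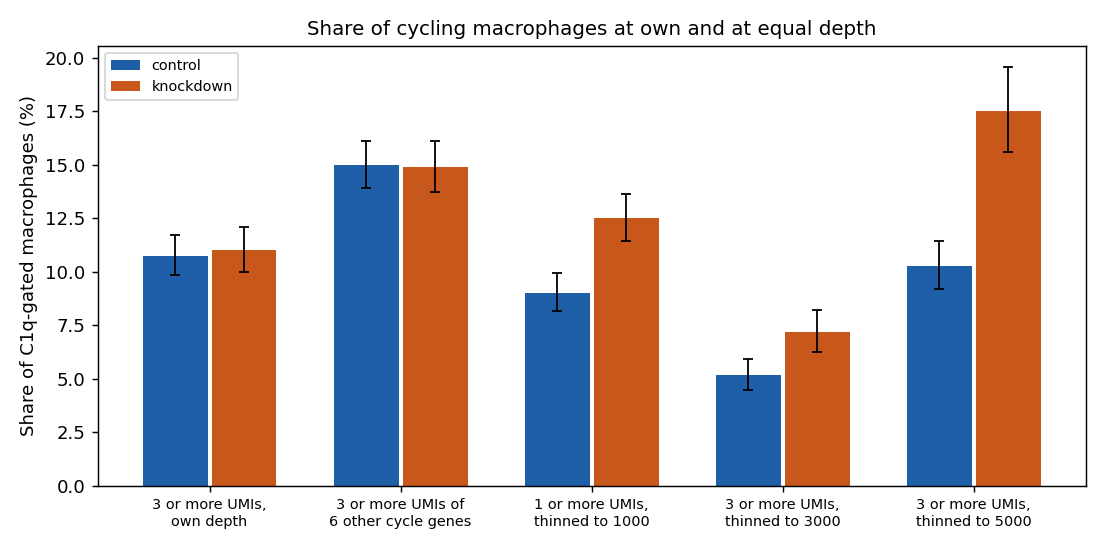
Share of C1q-gated macrophages (bars, %, from 0) that met 5 measures of cycling in control and knockdown, with 95% exact binomial intervals for counting error. At own depth the bars stand at 10.8% and 11%, and after thinning to 5000 UMIs at 10.3% and 17.5%.

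Genes of DNA replication were higher in cycling than in non-cycling macrophages in nearly every case. Counting genes with at least 20 UMIs over both sides in both libraries, 10.1% of 11826 genes were at least 1.5-fold higher and 4.31% at least 1.5-fold lower in cycling cells of both libraries, with a median log2 ratio of 0.08 in control and 0.07 in knockdown. Mki67 and Top2a chose the cells, so genes that follow them had to differ and these counts are a description. Of the 20 licensing genes, which load and fire the MCM helicase, 19 were higher, with median log2 ratios of 1.81 in control and 1.49 in knockdown. Gmnn, the inhibitor of relicensing, had 106 against 29.2 CPM in control and 99.7 against 32.2 CPM in knockdown, ratios of 3.64 (3.23 to 4.12) and 3.10 (2.64 to 3.63). Mcm6, a helicase subunit, had ratios of 3.06 and 2.24. Cdt1, the loading factor that is destroyed in S phase, was the exception, with ratios of 2.24 (1.86 to 2.70) and 1.28 (1.01 to 1.63).

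All 30 replication fork and nucleotide supply genes were higher, with medians of 2.07 and 1.73. Pcna, the sliding clamp, had 286 against 98.2 CPM in control and 305 against 116 CPM in knockdown, ratios of 2.92 and 2.64. Rrm2, the ribonucleotide reductase subunit made in S phase, had ratios of 19.8 and 8.30, and thymidine kinase Tk1 13.6 and 9.09. Rfc2, a clamp loader subunit, had the lowest ratios of the list, 1.70 and 1.71. Of 18 replication-dependent histones measured in both libraries, 17 were higher, with medians of 3.44 and 3.22, and Hist1h2bc was not, with ratios of 0.964 and 0.967. Reads of near-identical histone copies cannot be assigned with certainty. All 20 genes of histone variants and chromatin proteins were higher, among them H2afz (1852 against 531 CPM in control, 1854 against 544 CPM in knockdown) and Hmgb2 (1319 against 151 CPM, 1511 against 221 CPM).

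The lists of mitosis genes had the highest medians. Of the S phase cyclins, kinases and E2F factors, 15 of 16 were higher (medians 3.17 and 2.51), with Cdk1 at 243 against 15.9 CPM and 209 against 22.4 CPM, and E2f1 the exception at ratios of 1.92 and 1.48. Of 25 genes of mitotic entry and anaphase control 24 were higher (medians 4.25 and 3.64). The ubiquitin-conjugating enzyme Ube2c, which works with the anaphase-promoting complex, had 386 against 17.5 CPM in control and 375 against 29.7 CPM in knockdown. Pttg1, the securin that holds anaphase back, was not, with ratios of 0.994 (0.850 to 1.16) and 1.12 (0.922 to 1.34). All 38 kinetochore, spindle and cytokinesis genes were higher (medians 4.34 and 3.69), from Nusap1 at 51.2 and 22.5 down to the tubulin Tubb5 at 4.56 and 3.97.

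The 12 genes that led the ranking by interval were Knl1, Kif11, Nusap1, Neil3, Hist1h1b, Esco2, Hist1h2ae, Pclaf, Plk1, Hmmr, Kif15 and Prc1. Knl1, a kinetochore scaffold, had 90.4 CPM in cycling and 2.61 CPM in non-cycling control cells, and 91.9 and 3.63 CPM in knockdown, ratios of 34.6 (25.7 to 47.3) and 25.3 (18.03 to 36.4). Kif11, the motor that pushes spindle poles apart, had 117 against 3.19 CPM and 143 against 6.15 CPM. Hist1h1b, a linker histone, had 241 against 3.50 CPM in control and 217 against 10.9 CPM in knockdown, ratios of 68.7 and 19.9. Pclaf, a partner of PCNA, had 367 against 12.9 CPM and 419 against 23.9 CPM. Plk1, the kinase of mitotic entry, had 74.2 against 2.51 CPM and 74.4 against 3.45 CPM. The 7 others of the 12 had ratios from 22.5 to 51.2 in control and from 17.3 to 25.1 in knockdown. In each of the 12 the ratio was lower in knockdown than in control. The non-cycling level was higher in knockdown for each of them, while the cycling levels lay closer together. A cell with 0 UMIs of Mki67 and Top2a was a shallower cell in the knockdown library (median 4083 against 5971 UMIs). With equal weights over bins of UMIs the kinetochore list's medians still were 4.42 and 3.48, and with 10% of the UMIs taken off as free RNA they were 6.04 and 4.58. Under that subtraction non-cycling levels near 0 gave ratios of up to 1012, for Kif11 in control.

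With the stricter minimum of 50 UMIs and 50 CPM, 353 of 3296 genes (10.7%) were at least 1.5-fold higher in cycling cells of both libraries and 91 (2.76%) at least 1.5-fold lower.

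**Figure D3:**
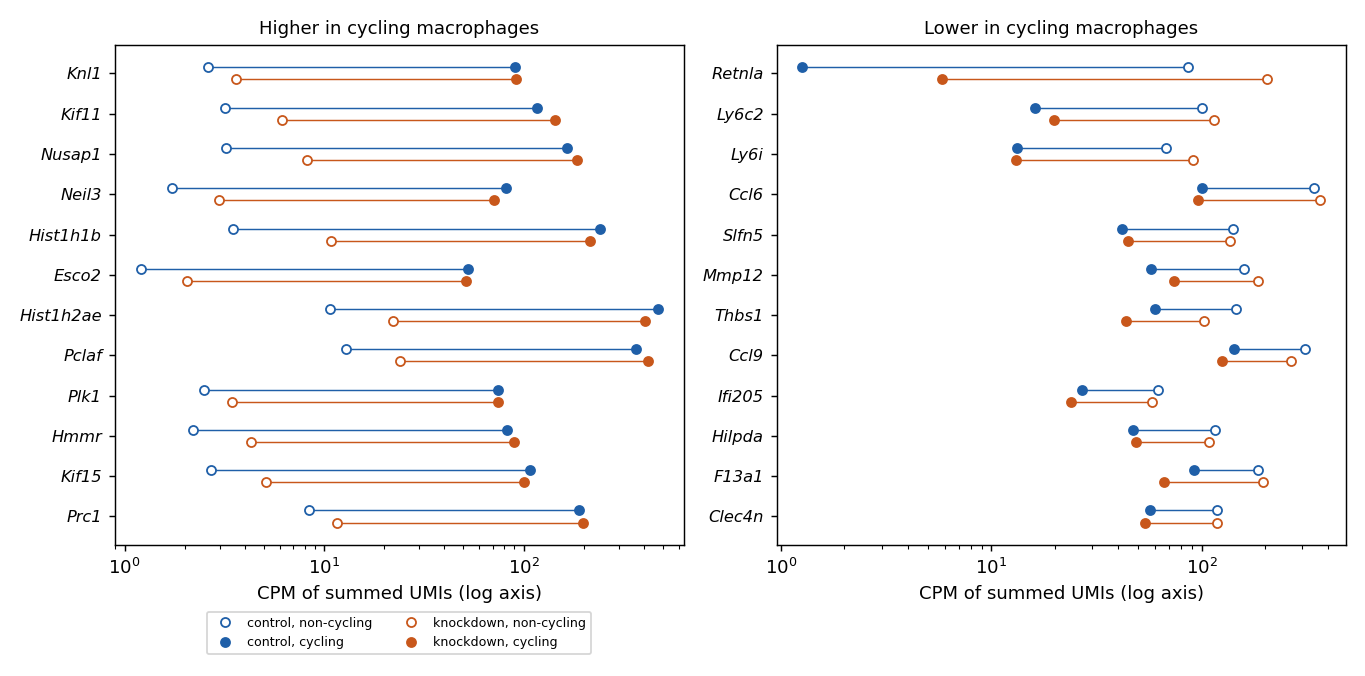
CPM (log axis) of the 12 genes ranked highest and the 12 ranked lowest in cycling against non-cycling macrophages, with open points for non-cycling and filled points for cycling cells in each library. In the left panel cycling cells lie 17.3 to 68.7 times above non-cycling cells, and in the right panel every filled point lies left of its open point.

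G1 genes had ratios closer to 1. Of 15 measured in both libraries only Cdk4, the kinase of the G1 cyclins, was at least 1.5-fold higher in both, with ratios of 1.77 and 1.74, and the list medians were 0.21 and 0.19. Npm1, a nucleolar chaperone, had ratios of 1.11 and 1.10. Among CDK inhibitors and antiproliferative genes 4 of 21 were higher and 4 lower, with medians of −0.38 and −0.34. Cdkn2c, an inhibitor of CDK4 and CDK6, was the highest of them, at 69.2 against 5.96 CPM in control and 69.2 against 5.96 CPM in knockdown, a ratio of 11.6 in both libraries (9.35 to 14.5 and 8.73 to 15.6). Cdkn1b, Cdkn2d and Ccng2 were the other higher genes, and Trp53inp1, Gadd45a, Gadd45b and Mxd4 the lower ones, named after their values were seen. Gadd45a, a stress gene, had ratios of 0.387 and 0.449, and Btg1, an antiproliferative gene, 0.676 and 0.720.

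In the list of p53 and DNA damage genes 10 of 23 were higher and 0 lower, with medians of 0.59 and 0.42. Atad2, a chromatin ATPase, was one of them, at 140 against 24.7 CPM in control and 142 against 34 CPM in knockdown, ratios of 5.64 and 4.16. The p53 target Bax had 1.04 and 1.05, and Bbc3, another target, 0.699 (0.450 to 1.05) and 0.985 (0.560 to 1.65).

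The replication and mitosis programmes were read in the same cells after thinning each to 3000 UMIs, which left out 7 control and 18 knockdown members. Over 50 replication genes the median member had 8 UMIs in control (quartiles 4 and 14) and 9 in knockdown (5 and 14), against 2 in non-cycling cells of both. Over 59 mitosis genes it had 17 UMIs in both libraries (quartiles 11 and 24 in both), against 1 in non-cycling cells. Replication UMIs exceeded mitosis UMIs in 28.7% of control members (127 of 443, interval 24.5 to 33.1) and 30.4% of knockdown members (115 of 378, 25.8 to 35.3). Mitosis UMIs were the higher in 69.8% and 67.2%. The rule asks for UMIs of Mki67 and Top2a, so cells with replication RNA and few UMIs of either fall outside it.

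Xist, the RNA that coats the inactive X chromosome of female cells, was higher in cycling macrophages in both libraries, and it was taken up here after its values were seen. In control it had 946 CPM in cycling and 495 CPM in non-cycling cells, 1.91 times as much (1.85 to 1.98). In knockdown it had 867 and 440 CPM, 1.97 times as much (1.88 to 2.07). A Xist UMI was found in 95.3% and 93.9% of cycling cells and in 78.1% and 67.6% of non-cycling cells. Xist went from 495 and 440 CPM at 0 UMIs of Mki67 and Top2a to 1052 and 926 CPM at 10 or more. In cells with at least 1 Xist UMI the log2 ratio was 0.73 in control and 0.63 in knockdown, and with equal weights over UMI bins 1.09 and 1.21. Droplets with at most 100 UMIs had 172 and 135 CPM of Xist.

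Genes of monocytes and of recent inflammation were lower in the cycling macrophages. Of 16 monocyte-derived genes 10 were at least 1.5-fold lower in both libraries and 0 higher, with medians of −1.17 in control and −0.91 in knockdown. Ly6c2, the surface protein of inflammatory monocytes, had 16.2 CPM in cycling and 100 CPM in non-cycling control cells, and 19.9 and 115 CPM in knockdown, ratios of 0.161 (0.127 to 0.203) and 0.173 (0.131 to 0.225). Ly6i, a related protein, had ratios of 0.195 and 0.143, and Thbs1, a matrix protein of activated macrophages, 0.412 and 0.424. With the rule read at 5000 UMIs Ly6c2 had 0.294 and 0.375, and Ly6i 0.413 in knockdown. Ly6a, the most abundant gene of the list, had ratios of 0.991 and 0.957.

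Of 17 inflammatory genes 9 were lower (medians −0.87 and −0.60). Cxcl2, a neutrophil attractant, had 158 against 405 CPM in control and 278 against 491 CPM in knockdown. Saa3, an acute phase protein, had ratios of 0.0894 (0.0536 to 0.141) and 0.0688 (0.0406 to 0.109), while the chemokine Ccl4 had 1.15 and 1.02. Dissociation and immediate early genes were lower in 9 of 22 (medians −0.58 and −0.46), with Egr2 at 0.359 and 0.626, while the constitutive chaperone Hspa8 had 0.983 and 0.943.

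Genes of resident-like and lipid-associated macrophages were lower as well. Of 15 resident-like genes 7 were lower (medians −0.61 and −0.71). Lyve1, a hyaluronan receptor of resident macrophages, had 0 UMIs in the cycling cells of both libraries against 6.07 and 7.92 CPM in non-cycling cells, and Pf4, a chemokine, had ratios of 0.790 and 0.611. Fcrls was not lower, with ratios of 1.05 (0.980 to 1.12) and 1.30 (1.19 to 1.43). Of 18 lipid-associated genes 9 were lower (medians −0.64 and −0.71). Apoe, a lipid carrier, had 12208 against 19397 CPM in control and 11954 against 16851 CPM in knockdown, and Mmp12, the macrophage elastase, 57.2 against 160 CPM and 73.7 against 186 CPM. The ratios of Mmp12 were 0.358 and 0.397, and 0.610 and 0.167 with equal weights over UMI bins. The resistin-like gene Retnla was the lowest ranked gene, at 1.26 against 86.5 CPM and 5.83 against 204 CPM, ratios of 0.0146 (0.00534 to 0.0318) and 0.0286 (0.0166 to 0.0459). Its knockdown ratio was 0.244 with a minimum of 2 UMIs of Mki67 and Top2a, its control ratio was 0.054 with equal weights over UMI bins, and 6 of its 17 knockdown cycling UMIs stood in 1 cell. Ccl6 and Ccl9, CC chemokines, had ratios of 0.294 and 0.265 and of 0.462 and 0.470. Slfn5, Ifi205, Hilpda, F13a1 and Clec4n completed the 12 lowest, with ratios from 0.298 to 0.495 in control and from 0.328 to 0.456 in knockdown. Fabp4, a fatty acid binding protein, had 34.5 against 14.9 CPM in control but 8.91 against 11.3 CPM in knockdown.

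The growth factor pathway and lineage genes were lower by less. In the CSF1 receptor pathway 3 of 18 genes were lower and 0 higher (medians −0.37 and −0.24). The lower ones were Il34, Igf1 and Spry2, named after their values were seen. Csf1r had ratios of 0.895 (0.849 to 0.942) and 0.987 (0.926 to 1.05), and Tyrobp, an adaptor of receptor signalling, 0.760 and 0.779. Igf1, a growth factor, had 0.303 (0.184 to 0.472) and 0.203 (0.0913 to 0.395). Of the 19 lineage transcription factors 4 were lower, Bhlhe41 among them with ratios of 0.484 and 0.609, and the abundant Zeb2 had 0.794 and 0.888. Pparg, a nuclear receptor of lipid metabolism, had ratios of 1.62 in control and 1.28 (0.975 to 1.67) in knockdown.

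MHC class II genes were lower in each case, while the MHC class I and metabolism lists had medians nearer to no change. None of the 12 MHC class II presentation genes passed 1.5-fold in both libraries, yet all 12 had ratios below 1 in both, with medians of −0.46 and −0.42, and Cd74, the invariant chain, had 6232 against 9037 CPM and 6448 against 8919 CPM. MHC class I presentation had medians of −0.02 and −0.03, with 0 of 15 genes past 1.5-fold in both. Interferon-stimulated genes had −0.11 and −0.18, with 4 of 27 lower (Ifit1, Ifit2, Ifit3 and Ifi205, named after their values were seen). Cholesterol synthesis had 0.13 in both libraries, with 1 of 22 genes lower and 0 higher in both. The medians were −0.25 and −0.26 for glycolysis and hypoxia, 0.21 and 0.12 for the respiratory chain, −0.07 and −0.12 for ribosomal proteins and −0.05 and −0.11 for phagocytosis and complement. The 14 site-1 protease pathway genes had 0.05 and −0.09 with 0 past 1.5-fold in both, and Mbtps1 itself had 21.2 against 19 CPM in control and 23.6 against 19.2 CPM in knockdown.

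**Figure D4:**
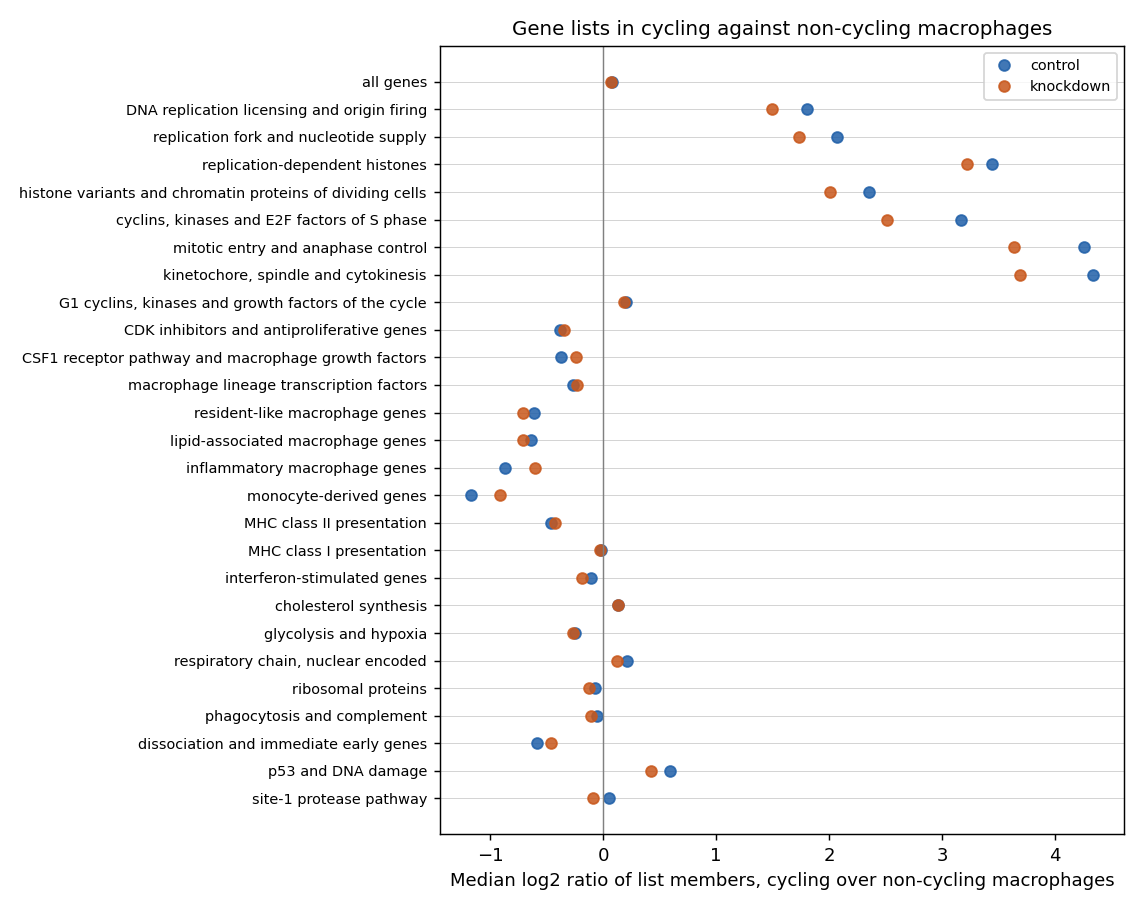
Median log2 ratio of cycling over non-cycling macrophages (horizontal axis) for 26 gene lists and all genes, 1 point per library. The 7 replication and mitosis lists stand at 1.49 to 4.34, all genes at 0.08 and 0.07, and the monocyte-derived list at −1.17 and −0.91.

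The share of cycling cells was also read along macrophage programmes, with the gated cells of each library split into 4 equal groups by the share of their UMIs in a list. Along the lipid-associated list it was 17.6% in the lowest and 4.02% in the highest group of control cells, and 16.7% and 4.34% in knockdown, with values in order across all 4 groups. Along the MHC class II list it was 13.6% and 4.78% in control and 13.5% and 5.45% in knockdown. Along the monocyte-derived list it was 13.7% and 5.55% in control and 13.8% and 4.89% in knockdown. The inflammatory list gave 12.3% and 7.94% in control and 13.2% and 7.45% in knockdown, and the resident-like list 11.8% and 7.66% and 11.8% and 9.12%. Along the interferon list the lowest and highest groups were close, at 9.27% and 9.76% in control and 10.2% and 8.34% in knockdown.

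The groups of the lipid-associated list were close in depth, with medians of 6066 UMIs in the lowest and 6362 in the highest group of control cells and 4094 and 4538 in knockdown. Among cells of 5000 up to 10000 UMIs alone, the lipid-associated groups ran from 15.8% to 2.92% in control and from 35.0% to 7.41% in knockdown. The MHC class II groups ran from 10.9% to 4.04% and from 21.1% to 13.1%. The share of a list is taken of all UMIs of a cell, cycle genes included, and the part of this in the order was not tested.

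The libraries are compared next, among cycling cells only, to see how these cells differed between the control and the knockdown library. Mbtps1 had 101 UMIs (21.2 CPM) in control and 69 UMIs (23.6 CPM) in knockdown cycling macrophages, a ratio of 1.11 whose interval runs from 0.808 to 1.53, and 1.01 (0.848 to 1.20) in non-cycling cells. Few abundant genes passed 1.5-fold. With at least 50 UMIs over both libraries and 50 CPM, 20 of 3426 genes (0.584%) were at least 1.5-fold higher in knockdown and 20 (0.584%) at least 1.5-fold lower. Over the 10801 genes with at least 20 UMIs, 5.77% were at least 1.5-fold higher and 4.86% lower, with a median log2 ratio of 0.03.

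The programme that defines the cells was close in the 2 libraries. The rule set the same minimum of Mki67 and Top2a UMIs in both, so part of this closeness was fixed in advance. None of the 38 kinetochore, 25 mitotic entry, 16 S phase cyclin, 20 chromatin and 30 replication fork genes passed 1.5-fold in either direction, with list medians from 0.00 to 0.05. Among 20 licensing genes Orc1 alone was lower, at 9.25 and 5.14 CPM (0.556, 0.287 to 1.02), and was named after its value was seen. Histones had a median of −0.14, with 3 of 18 lower (Hist1h2ac, Hist1h2ap and Hist1h2bc) and 0 higher. Hist1h2ap, a core histone, had 511 CPM in control and 199 CPM in knockdown, a ratio of 0.390 (0.356 to 0.427), against 0.853 (0.684 to 1.06) in non-cycling cells. Hist1h2ae, of the same family, had 471 and 408 CPM, a ratio of 0.867, and reads of copies this alike may be split between them. In non-cycling cells the kinetochore list had a median of 0.69 with 24 of 38 genes at least 1.5-fold higher in knockdown. Over all genes with at least 20 UMIs in those cells, 1139 of 13257 were at least 1.5-fold higher, with a median of 0.05. The non-cycling cells, chosen by 0 UMIs of Mki67 and Top2a, had medians of 4083 UMIs in knockdown and 5971 in control. The part of depth in this was not tested.

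Chemokines and inflammatory genes led the genes that were higher in knockdown cycling cells. Ccl8, a monocyte attractant made by resident-like macrophages, had 835 CPM in control and 1692 CPM in knockdown, a ratio of 2.03 (1.94 to 2.11), against 1.75 (1.71 to 1.78) in non-cycling cells. Cxcl9, the interferon-gamma target that attracts T cells, stood at 1474 and 2482 CPM, or 1.68-fold (1.63 to 1.74), against 1.82 (1.79 to 1.85) in non-cycling cells. Cxcl2 had 158 and 278 CPM, 1.76 (1.59 to 1.94), and 1.21 in non-cycling cells, but 138 of 753 control and 137 of 812 knockdown UMIs stood in 1 cell each. Nos2, inducible nitric oxide synthase, had 32.0 and 55.2 CPM, 1.73 (1.38 to 2.17), and Tnfaip3, an inhibitor of NF-kB, 40.1 and 67.5 CPM, 1.68 (1.37 to 2.06).

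The other genes named as higher were Cadm1 (66.8 and 118 CPM), C4b (33.0 and 59.0), Wfdc17 (371 and 556), Ccnd3 (66.8 and 104), Serpina3g (65.8 and 100.1), Nmt1 (136 and 196) and Tnip3 (38.5 and 61.0). Nmt1, at 1.44, was ranked by its interval and did not reach 1.5-fold. In non-cycling cells the ratios were 1.40 for Cadm1, 1.13 for C4b, 1.31 for Wfdc17, 1.44 for Nmt1 and 1.31 for Tnip3. Serpina3g had a ratio of 1.52 in cycling and 1.66 in non-cycling cells. Cyclin D3, the product of Ccnd3, drives G1, and its gene had a ratio of 1.55 (1.32 to 1.82) in cycling and 1.08 (0.998 to 1.18) in non-cycling cells. In the inflammatory list 4 of 15 genes were higher (Cxcl1, Cxcl2, Saa3 and Tnfaip3) and 0 lower, with a median of 0.25. In the monocyte-derived list 3 of 14 were higher (Chil3, Vcan and Nos2) and 0 lower, with a median of 0.12.

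Several of these calls did not hold under every alternative. Nos2 was at 1.26 with a minimum of 5 UMIs of Mki67 and Top2a, at 1.29 with the rule read at 5000 UMIs and at 4.23 with equal weights over UMI bins. With those weights C4b was at 1.19, Serpina3g at 1.27 and Ccnd3 at 1.46, while Cxcl2 was at 2.93. Cxcl2 was at 1.48 with a higher C1q minimum. Tnip3, Tnfaip3 and Wfdc17 also came under 1.5-fold in at least 1 alternative.

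Lipid-associated and interferon genes were among those lower in knockdown cycling cells. Arg1, the arginase of alternatively activated macrophages, had 755 and 457 CPM, a ratio of 0.605 (0.568 to 0.645), against 0.727 (0.711 to 0.744) in non-cycling cells. Hmox1, haem oxygenase, had 213 and 113 CPM, 0.532 (0.469 to 0.603), against 0.699 in non-cycling cells. Of its 1014 control UMIs, 181 stood in 1 cell. Without the cell that held most of its UMIs in each library its ratio was 0.617. Fabp5, a fatty acid binding protein, had 406 and 275 CPM, 0.677 (0.623 to 0.735), against 1.07 (1.04 to 1.10) in non-cycling cells. It was ranked by its interval and did not reach 1.5-fold lower. Its log2 ratio of −0.56 was 0.20 with equal weights over UMI bins. Fabp4 had a ratio of 0.258 (0.164 to 0.393). In the lipid-associated list 3 of 18 genes were lower (Fabp4, Arg1 and Hmox1) and 0 higher, with a median of −0.20. The 1.5-fold calls of Arg1 and Hmox1 were lost with equal weights over UMI bins, at 0.775 and 0.779, and that of Arg1 also with a minimum of 2 UMIs of Mki67 and Top2a, at 0.732.

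In the interferon list 4 of 27 were lower (Ifit3, Rsad2, Oas1a and Irf7), 1 was higher (Cxcl9), and the median was −0.06. Rsad2, an antiviral enzyme, had 142 and 80.2 CPM, 0.566 (0.486 to 0.658), against 0.792 in non-cycling cells. Irf7, a transcription factor of the interferon response, had 180 and 119 CPM, 0.662 (0.583 to 0.751), against 0.802 in non-cycling cells. Isg15, a ubiquitin-like protein, had 268 and 182 CPM, 0.677 (0.611 to 0.750), against 0.682. Oas1a, an antiviral synthetase, had a ratio of 0.555, against 0.681 in non-cycling cells. Pf4 had 593 and 414 CPM, Btg2, an antiproliferative gene, 106 and 65.1 CPM, and Hes1, a Notch target, 108 and 62.4 CPM. Their ratios were 0.698, 0.612 and 0.575 in cycling cells and 0.903, 0.535 and 0.743 in non-cycling cells. Isg15 and Pf4 were ranked by their intervals and did not reach 1.5-fold lower. Krt14, a keratin of basal keratinocytes, had 70.8 and 3.43 CPM, but 315 of its 337 control UMIs stood in 1 cell. Without that cell and the knockdown cell with most of its UMIs the ratio was 0.519, against 0.0484 with all cells. It was 0.704 without cells that held 5 UMIs of another cell type. Rsad2 was at 0.803 with equal weights over UMI bins and at 0.760 with a minimum of 2 UMIs of Mki67 and Top2a, Irf7 at 0.704 with that minimum, and Btg2 at 0.793 with the rule read at 5000 UMIs, all short of 1.5-fold lower.

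Cholesterol synthesis genes, which SREBP2 is known to drive once site-1 protease has released it, had a median of −0.02 in cycling cells, with 4 of 21 higher and 3 lower. Their levels were low, led by Ebp at 87.4 and 88.1 CPM. The site-1 protease pathway had a median of 0.09, with Creb3l1 the 1 gene of 14 past 1.5-fold, at 7.78 and 4.80 CPM (0.617, 0.308 to 1.17), named after its value was seen.

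**Figure D5:**
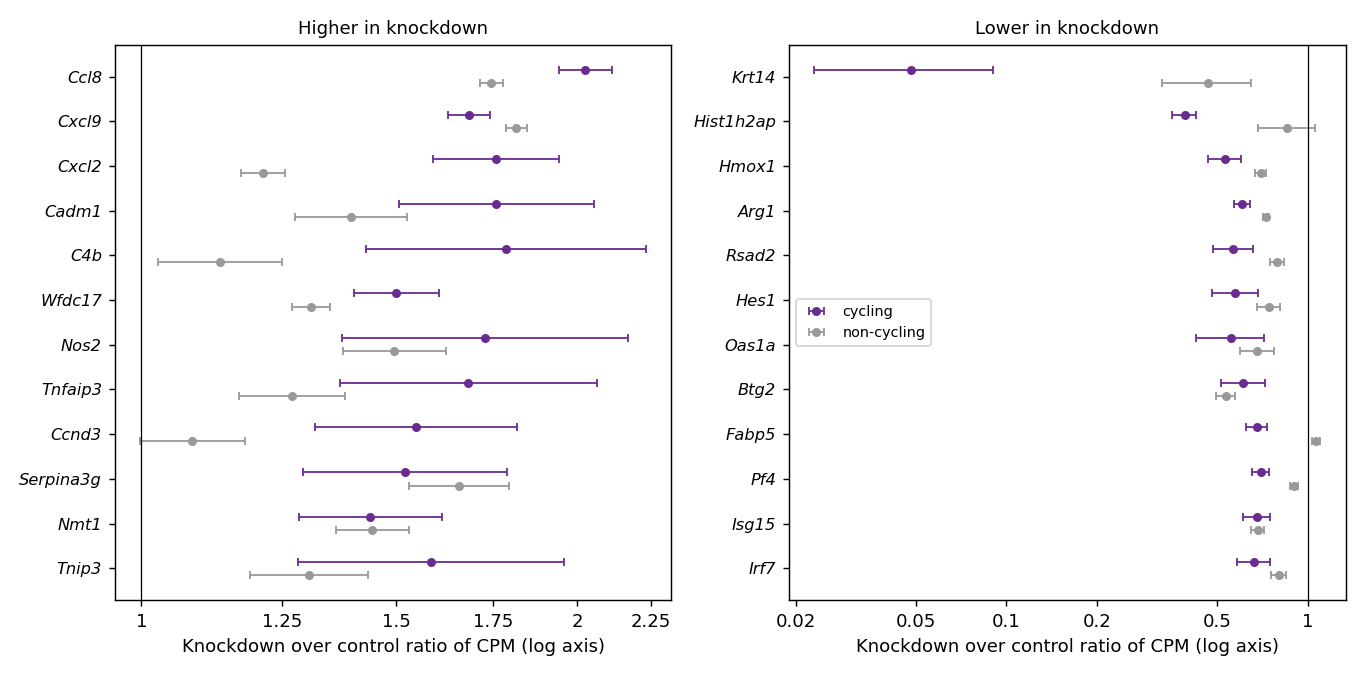
Ratio of knockdown over control CPM (log axis, with 1 marked) of the 12 genes ranked highest and the 12 ranked lowest in cycling macrophages, in purple, and of the same genes in non-cycling macrophages, in grey, with 95% intervals for counting error. Ccl8 is at 2.03 and 1.75, Fabp5 lies on opposite sides of 1 at 0.677 and 1.07, and Krt14 at 0.0484 rests on 1 cell.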

How the data were processed

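Each library is a 10x 3' droplet library of dissociated MC38 tumour tissue. The authors deposited unfiltered UMI counts for 32285 features per library, made with Cell Ranger 4, both per the file headers. Genome build, annotation and how reads of similar genes were counted are not stated in the sources used. From the counts, barcodes were gated as the report states, the UMIs of each class in each library were added up and scaled to CPM. Intervals at 95% are exact, Poisson for ratios and Clopper-Pearson for shares. Coverage of the ratio interval was checked on Poisson counts simulated from a summed profile. That check leaves out the spread between cells, such as a cell that holds many UMIs of a gene. Called means at least 1.5-fold. No test was made, since each group has 1 library.

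The members and the 26 gene lists were chosen with earlier results of these data known. Named genes are the first 12 each way by the interval end nearest 1, with at least 50 UMIs and 50 CPM, above empty droplets (at most 100 UMIs), without mitochondrial, ribosomal or unnamed genes. In each list they are the 2 most abundant members and those of highest and lowest ratio. Some genes the rule takes are not reported here. Scrublet in scanpy 1.11.5 called 3.86% of control and 4.97% of knockdown barcodes doublets, which were kept and left out as an alternative. Thinned shares are expected values. Alternatives changed the gate, the depth, the weights, free RNA and the minimums. Python 3.11.15, numpy 2.4.6, scipy 1.17.1 and pandas 2.3.3 were used.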

Additional observations from a re-analysis of the deposited data

Results flagged for a closer look

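For 4 genes the ratio of cycling over non-cycling macrophages lay on opposite sides of 1 in the 2 libraries, with both counting intervals clear of 1. Ccnd3 had 0.854 in control and 1.22 in knockdown. Hsp90aa1, a chaperone, had 0.897 and 1.08. Cox6c, a respiratory chain subunit, had 1.04 and 0.884, and the ribosomal gene Rps2 had 1.02 and 0.961. The difference between the libraries was not tested, since each group has 1 library, and none of the 4 genes passed 1.5-fold in either library.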

How the results depend on the processing

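No paired analysis was possible because each group has 1 library and no result comes from a test. No value past 1.5-fold changed sign under the alternatives run, but values under it did. The share ratio of 1.02 was 1.54 (0.920 to 2.59) after thinning to 1000 UMIs. In alternatives chosen after seeing the data it was 1.39 and 1.45 with at least 1 UMI at 1000 and 3000 UMIs. With at least 3 UMIs, also chosen after seeing the data, it was 1.39 at 3000 and 1.71 at 5000. The counts of genes higher and lower in cycling cells, 353 and 91, were 147 and 60 with minimums of 100 UMIs and 100 CPM, and within 1.5 times under the other alternatives. Between the libraries the 20 higher genes were 65 with equal weights over UMI bins and 9 with the higher minimums. The 20 lower genes were 32 with at least 5 UMIs of Mki67 and Top2a, 37 with Hmga2 and Rhox5 at 0, 65 with equal weights over UMI bins and 11 with the higher minimums. They were 34 without cells that held 5 UMIs of another cell type and 32 with the rule read at 5000 UMIs, both added after seeing the data. Higher minimums leave fewer genes to count, and the cause of the other moves was not tested. Of 1056 alternative values of single genes 162 moved out of the interval of the result, of 1118 values of lists 47, of 16 share ratios 5 and of 32 shares within a library 17. Of the counts of genes, 10 of 62 moved by over 1.5 times. With equal weights over UMI bins Fabp5 in knockdown over control turned from −0.56 to 0.20 (log2), and the CSF1 receptor pathway in knockdown cycling over non-cycling cells from −0.24 to 0.04. Depth limits the knockdown side, whose 396 members had a median of 7194 UMIs.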
